A study of Homo sapiens with 16 samples.

Results

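ZNF genes are the human genes named as zinc finger proteins with a running number. The genes described here were the protein-coding ones among them whose symbol is ZNF, digits and at most 1 further letter, and whose normalized count averaged at least 100 over all 16 libraries. There were 288 such genes among 509 protein-coding ZNF genes and 58051 identifiers in the table. Of the ZNF genes not taken, 122 had a mean from 10 to 100 and 99 had a mean under 10, with 37 of the latter at 0 in every library. The genes were thus chosen by their mean level over all 4 groups together, which is given as a description, whereas the differences between groups did not enter the rule. Just outside the threshold stood ZNF696 (mean 95.7), ZNF862 (96.8), ZNF671 (97.7) and ZNF799 (97.7), and just inside it ZNF235 (100.2), ZNF211 (102), ZNF174 (102) and ZNF485 (104). In 253 of the 288 genes the mean reached 100 in each of the 4 groups. The other 35, among them ZNF211, ZNF256, ZNF485, ZNF549 and ZNF93, passed through the groups where they were high, which favours a difference between groups.

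A C2H2 zinc finger is a short fold held by a zinc ion between cysteines and histidines, and arrays of such fingers read DNA sequence. Many human ZNF proteins also carry a KRAB domain, which binds the scaffold TRIM28 and through it the histone methyltransferase SETDB1, so that H3K9 methylation and silencing spread over the bound site, often a transposable element. KRAB zinc finger genes have multiplied in clusters, above all on chromosome 19. Others in the name class have no such domain and serve in transcription activation, splicing, ribosome assembly or ubiquitin ligation, so the name is not a pathway.

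The genes were measured by RNA sequencing in P493-6 cells, a line of immortalised human B cells whose MYC transgene is shut down by doxycycline and whose viral factor EBNA2 works only with oestrogen. High MYC cells had neither additive. Medium MYC cells had been kept for 24 h beforehand with β-estradiol at 1 µM and doxycycline at 0.1 µg/mL, so MYC level, doxycycline and estradiol cannot be told apart. The treatment, 24 h by the titles, was DMSO or IMP1088 at 100 nM, a compound that blocks N-myristoyltransferases (NMT), the enzymes that attach myristate to protein N-termini. Each of the 4 groups had 4 libraries, and nothing in the labels says whether replicates were separate cultures, so the p-values measure the spread between these libraries, which may be technical.

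Libraries held from 8755296 to 13858534 reads, and the lowest value of any of the 288 genes in any library stood for 15 reads. MYC lay between 29693 and 34376 normalized counts in the high MYC controls, between 46843 and 48049 with the inhibitor, between 904 and 1022 in the medium MYC controls and between 1328 and 1444 with the inhibitor. The levels follow the labels, and MYC itself was higher with the inhibitor at both levels (limma log2 change 0.59 ± 0.041 (SE) and 0.53 ± 0.041, adjusted p = 7.24e-10 and 2.74e-09, n = 4 libraries in each group). All 8 B cell markers had means of at least 100, none of 4 T cell markers and none of 4 epithelial or fibroblast markers did, and 1 of 4 myeloid markers (ITGAM, mean 134.6) did. The summed B cell markers ran from 41090 to 43490 in the high MYC controls, from 34600 to 35790 with the inhibitor there, from 62930 to 66800 in the medium MYC controls and from 56720 to 58460 with the inhibitor there. Single B cell markers did not all follow the sum: between the controls CD79A and CD79B were lower at medium MYC (log2 change -0.12 and -0.11, adjusted p = 0.0101 and 0.0174). The myeloid sum ran from 118.1 to 135.6 in the high and from 263.4 to 290.5 in the medium MYC controls, and the epithelial or fibroblast sum from 64.82 to 77.49 and from 177.3 to 189.9, with ITGAM (1.49) and COL1A1 (4.39) higher and EPCAM (-2.23) lower at medium MYC, and with CD14, CSF1R, KRT8 and COL1A2 at means under 10. The T cell sum ran from 62.89 to 71.53 in the high MYC controls and from 44.09 to 57.68 with the inhibitor there. At medium MYC it ran from 68.84 to 95.39 in controls and from 43.11 to 54.31 with the inhibitor. CD3G was called lower with the inhibitor at both levels (limma log2 change -0.73 and -0.74, adjusted p = 0.0329 and 0.0319). CD3E was called lower at medium MYC only (-0.71, adjusted p = 0.00161). The part of these shifts in the results below was not tested. In bulk RNA, fewer cells that express a gene and less of its RNA per cell cannot be told apart.

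The translated coding sequences bore out the name for nearly all of the 288 genes. They held a median of 10 C2H2 fingers per protein and at most 31 (ZNF91 and ZNF142), 246 had at least 5, 11 had 1 and 3 had none by the pattern used. A KRAB domain was found in 181 genes (62.8%), against 2.12% of all tested genes, and a SCAN domain, which pairs zinc finger proteins with each other, in 15, of which 8 also had KRAB. Chromosome 19 held 123 of the 288 genes (42.7%, against 7.49% of tested genes), 104 of them with KRAB. The median GC content of the transcripts was 45.3%, against 48.95% over tested genes. Levels were modest: the median of the means was 270 normalized counts, close to the 266 of all tested genes, and the highest were ZNF207 (3854), ZNF217 (2290) and ZNF106 (2073), none of which has a KRAB match. Exons of 148 of the genes overlap those of another gene in the annotation, 96 of them antisense to it, and whether counting took account of strand is not given in the sources used here. In 44 genes at least 10% of the 50-base windows of the transcript occur in another gene, so reads there can be split between copies.

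**Figure D1:**
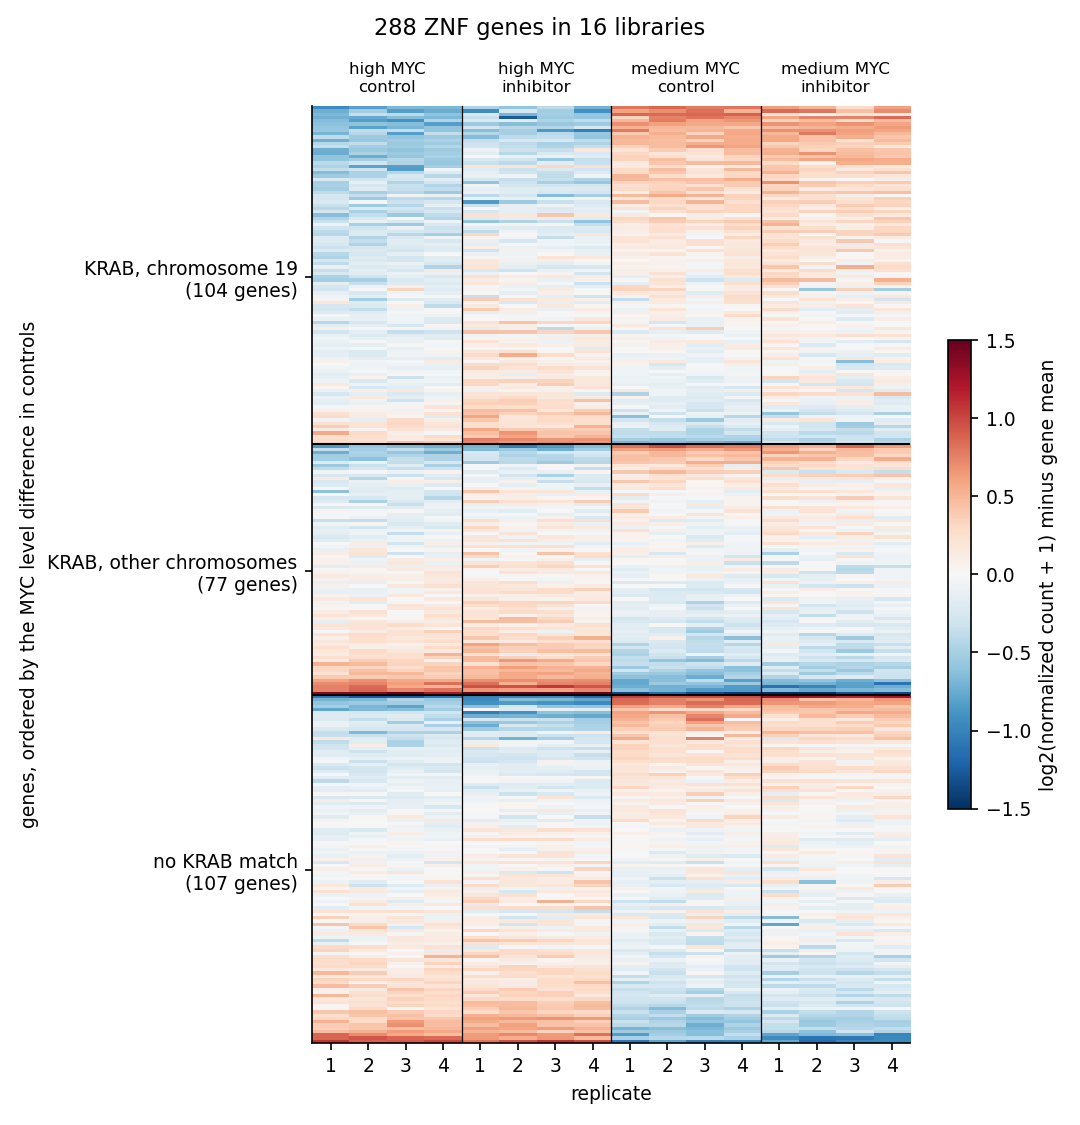
Each row is 1 of the 288 ZNF genes and each column 1 of the 16 libraries, with colour showing log2(normalized count + 1) minus the gene's mean over all libraries (capped at 1.5 either way); rows are split into KRAB genes on chromosome 19, KRAB genes elsewhere and genes with no KRAB match, and ordered by the MYC level difference in controls. In the block of 104 KRAB genes on chromosome 19 the high MYC control columns are the palest or bluest for most rows, and 70 of the 104 had their lowest group mean there.

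The first comparison asked what NMT inhibition did to these genes at high MYC. Most that changed rose: of the 288 genes, 85 were higher and 15 lower with IMP1088 (limma, Benjamini-Hochberg adjusted p under 0.05), or 29.5% and 5.21%. Of all 13765 tested genes, 26.8% were called, 10.5% higher and 16.3% lower. Among tested genes with a mean of at least 100, the same cut on level as the ZNF genes, 10.9% were higher and 20.5% lower. The median log2 change was 0.11 for the 288 genes and -0.020 for all tested genes, and the median of the 288 lay between 0.10 and 0.14 under the other scalings and the correction for GC content. Changes were small: none of the 288 was called with a change of at least 2-fold. Such changes were also rare among tested genes with a mean of at least 100 (0.26%), against 1.56% of all tested genes. The extremes of the 288 were 0.89 (ZNF256) and -0.54 (ZNF362) on the log2 scale. The 4 treated and 4 control libraries did not overlap in 102 of the 288 genes. The same held for 3670 of all 13765 tested genes (26.7%) and for 3009 of the 9604 with a mean of at least 100.

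KRAB genes were 64 of the 85 that rose. Of the 181 KRAB genes 64 were higher and 3 lower, with a median of 0.16, and of the 107 without KRAB 21 were higher and 12 lower, with a median of 0.033. KRAB genes on chromosome 19 had 45 of 104 higher and 2 lower (ZNF700 and ZNF791), with a median of 0.18. Those on other chromosomes had 19 of 77 higher and 1 lower (ZNF41), with a median of 0.11. Without KRAB, 7 of 19 genes on chromosome 19 were higher and none lower (median 0.12). Elsewhere 14 of 88 genes without KRAB were higher and 12 lower (median 0.029). On chromosome 19 the rise was thus not confined to KRAB genes. Among 80 KRAB genes free of exon overlap and with under 10% shared windows, 22 were higher and 2 lower. Across genes the change ran against GC content, with a Pearson r of -0.24 over the 288 genes and -0.15 over the tested genes that have a GC value, and genes are not independent replicates. With GC removed from the fit the KRAB median was 0.14, and the number of lower genes among the 288 was 23. Under alternative settings other than leaving out a library, the number of higher genes ran from 60 to 102. That of higher KRAB genes ran from 53 to 72.

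**Figure D2:**
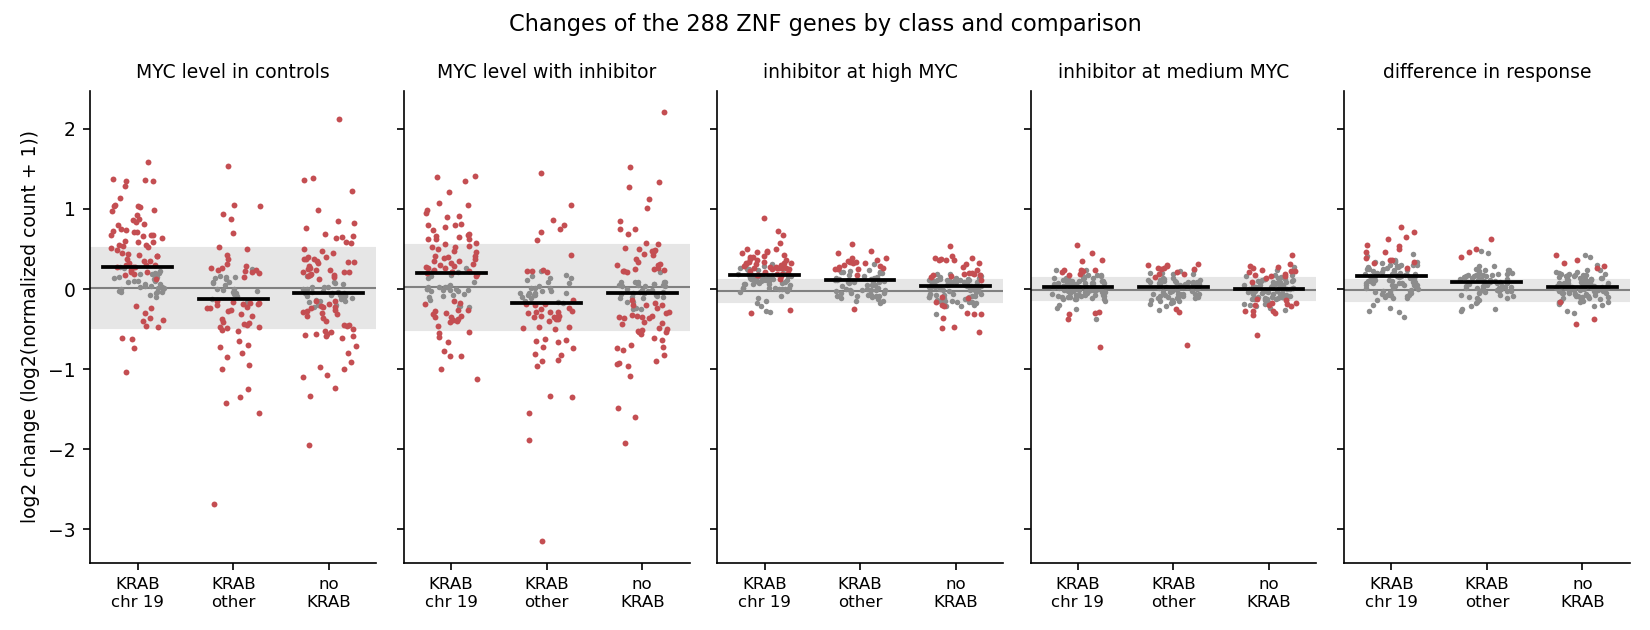
The log2 change of each of the 288 ZNF genes is plotted for the 5 comparisons (medium minus high MYC in controls and with the inhibitor, inhibitor minus control at high and at medium MYC, and the difference of the latter pair), with genes at an adjusted p under 0.05 in red, class medians as black bars, and the median and middle 50% of all tested genes as a grey line and band. At high MYC the medians of the KRAB classes, 0.18 on chromosome 19 and 0.11 elsewhere, lie above the grey line at -0.020.

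The largest rise was in ZNF256, a KRAB gene with 15 fingers on chromosome 19 (GRCh38, 57940833 to 57947675, minus strand). Its normalized counts were 72.3, 57.3, 56.3 and 70.4 in the high MYC controls and 116, 116, 126 and 119 with the inhibitor. Every treated library was above every control library, and the log2 change was 0.89 ± 0.10 (SE), or 1.86-fold. With a mean of 104 over all libraries, ZNF256 passed the threshold only through the 3 other groups. The rule thus favoured this rise, which is given as a description. In the medium MYC controls ZNF256 already stood at 110, 122, 106 and 112, and with the inhibitor there at 134, 122, 119 and 112. The 3 other groups overlapped each other, and the high MYC controls lay below all of them.

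ZNF543, with KRAB and 13 fingers (chromosome 19, 57320509 to 57330776, plus strand), was likewise lowest in the high MYC controls. Counts were 97.2, 117, 103 and 116 in the high MYC controls and 177, 169, 202 and 169 with the inhibitor, a log2 change of 0.72 ± 0.086 (adjusted p = 1.52e-06). At medium MYC they were 167, 154, 162 and 153 without and 185, 155, 178 and 167 with the inhibitor, which overlap. ZNF551, which shares exon sequence on its strand with another gene, rose from 223, 248, 215 and 222 to 374, 370, 345 and 366, by 0.68 ± 0.062 (adjusted p = 3.63e-08). ZNF134, a neighbour with 10 fingers and no KRAB match (57614233 to 57624723, plus strand), rose from 172, 184, 189 and 206 to 299, 257, 272 and 260, by 0.53 ± 0.063 (adjusted p = 1.32e-06). The remaining large rises were ZNF132 (0.57 ± 0.090), also on chromosome 19, and ZNF26 (0.56 ± 0.071), a KRAB gene on chromosome 12 that rose from a mean of 258 ± 25.1 (SD, n = 4) to 380 ± 26.4.

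The genes that fell most at high MYC had no KRAB match. ZNF362 fell from 181, 177, 173 and 171 to 101, 112, 139 and 135 (log2 change -0.54 ± 0.086, adjusted p = 7.20e-05). ZNF672 fell from 241, 238, 246 and 212 to 167, 171, 166 and 162 (-0.49 ± 0.070, adjusted p = 1.70e-05). ZNF318, a regulator of the IgM to IgD choice in B cells, fell from 870, 882, 892 and 851 to 664, 631, 630 and 589 (-0.48 ± 0.050, adjusted p = 2.90e-07). None of these 3 pairs of groups overlapped. ZNF217, an oncogene and partner of the CtBP and CoREST co-repressors, fell from a mean of 1390 ± 32.4 to 1084 ± 33.2, and ZNF395 from 848 ± 24.1 to 686 ± 40.3. ZNF341, a factor that drives STAT3 expression, went from 266 ± 12.7 to 216 ± 13.3 (-0.30 ± 0.089, adjusted p = 0.0143), a call that was lost without replicate 1 of the treated libraries (adjusted p = 0.0554).

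Summed over the 288 genes, the share of each library's reads was also higher with the inhibitor at high MYC. It was 1.004%, 1.019%, 1.045% and 1.053% in the high MYC controls and 1.135%, 1.116%, 1.097% and 1.087% with the inhibitor, so the groups did not overlap. The KRAB genes on chromosome 19 took 0.2155% to 0.2277% of the reads in the controls and 0.2515% to 0.2651% with the inhibitor. Genes without KRAB took 0.5468% to 0.5708% and 0.5698% to 0.5895%, ranges that meet. At medium MYC the share of the 288 genes was 1.011% to 1.085% in controls and 1.064% to 1.108% with the inhibitor, which also overlap.

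**Figure D3:**
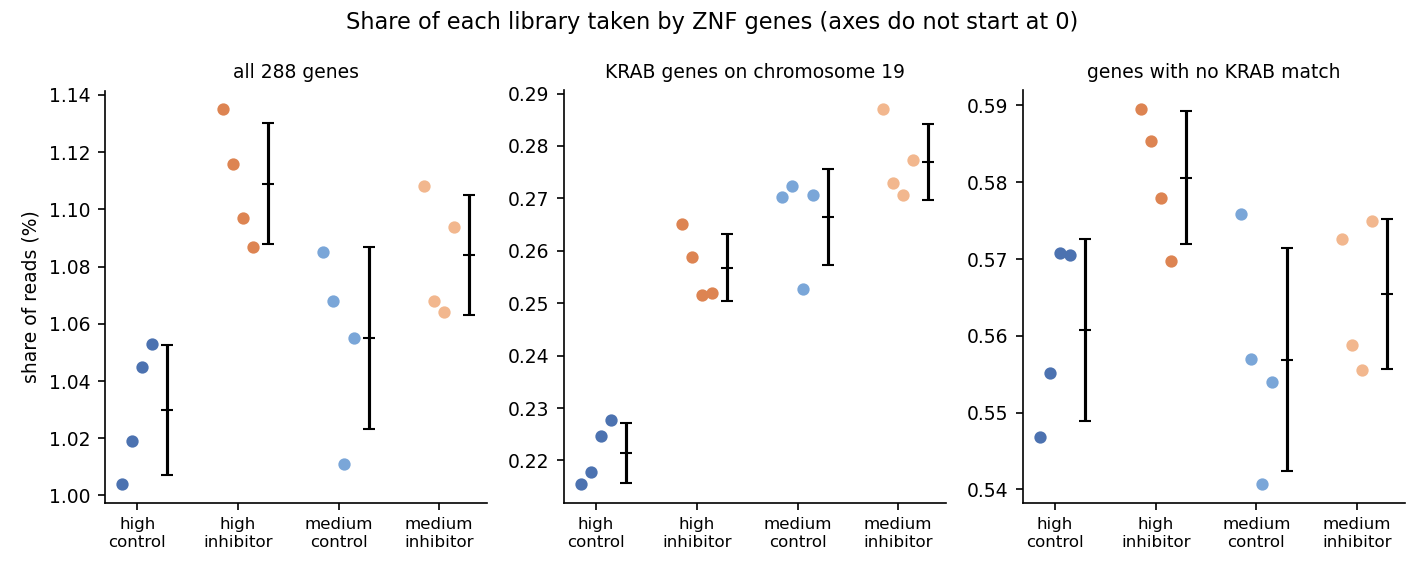
Points give the share of each library's reads (in percent) taken by all 288 ZNF genes, by the 104 KRAB genes on chromosome 19 and by the 107 genes with no KRAB match, for the 4 groups, with the mean and SD of 4 libraries as a bar beside them; the axes do not start at 0. The high MYC controls sit lowest in the middle panel, between 0.2155% and 0.2277%, with every other library at 0.2515% or above.

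Genes that rose at high MYC were found in most runs of ZNF genes along chromosome 19. ZNF genes whose starts lie within 1 Mb of the next were joined into runs, and 11 runs of at least 5 of the 288 genes held 144 of them. The most distal run on chromosome 19 (55476332 to 58475436) held 35 of the 288 genes, 27 with KRAB. At high MYC 21 of these 35 were higher and none lower, 30 had a positive change, and the median was 0.26. At medium MYC 8 were higher and 1 lower. The runs at 36214602 to 37719790 and 43596392 to 45076588 had medians as large at high MYC (0.27 and 0.26), with 4 of 8 and 4 of 9 genes higher and none lower, and the run at 7069444 to 9675086 had 4 of 8 higher and none lower (median 0.17). The run at 51571298 to 53580269 had 9 of 22 higher and none lower (median 0.14), and the run at 19668796 to 24129961, home of ZNF91 and ZNF93, had 7 of 23 higher and none lower (median 0.15). In the run at 11559374 to 12640098, 1 of 9 was higher and 2 were lower (median 0.068).

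**Figure D4:**
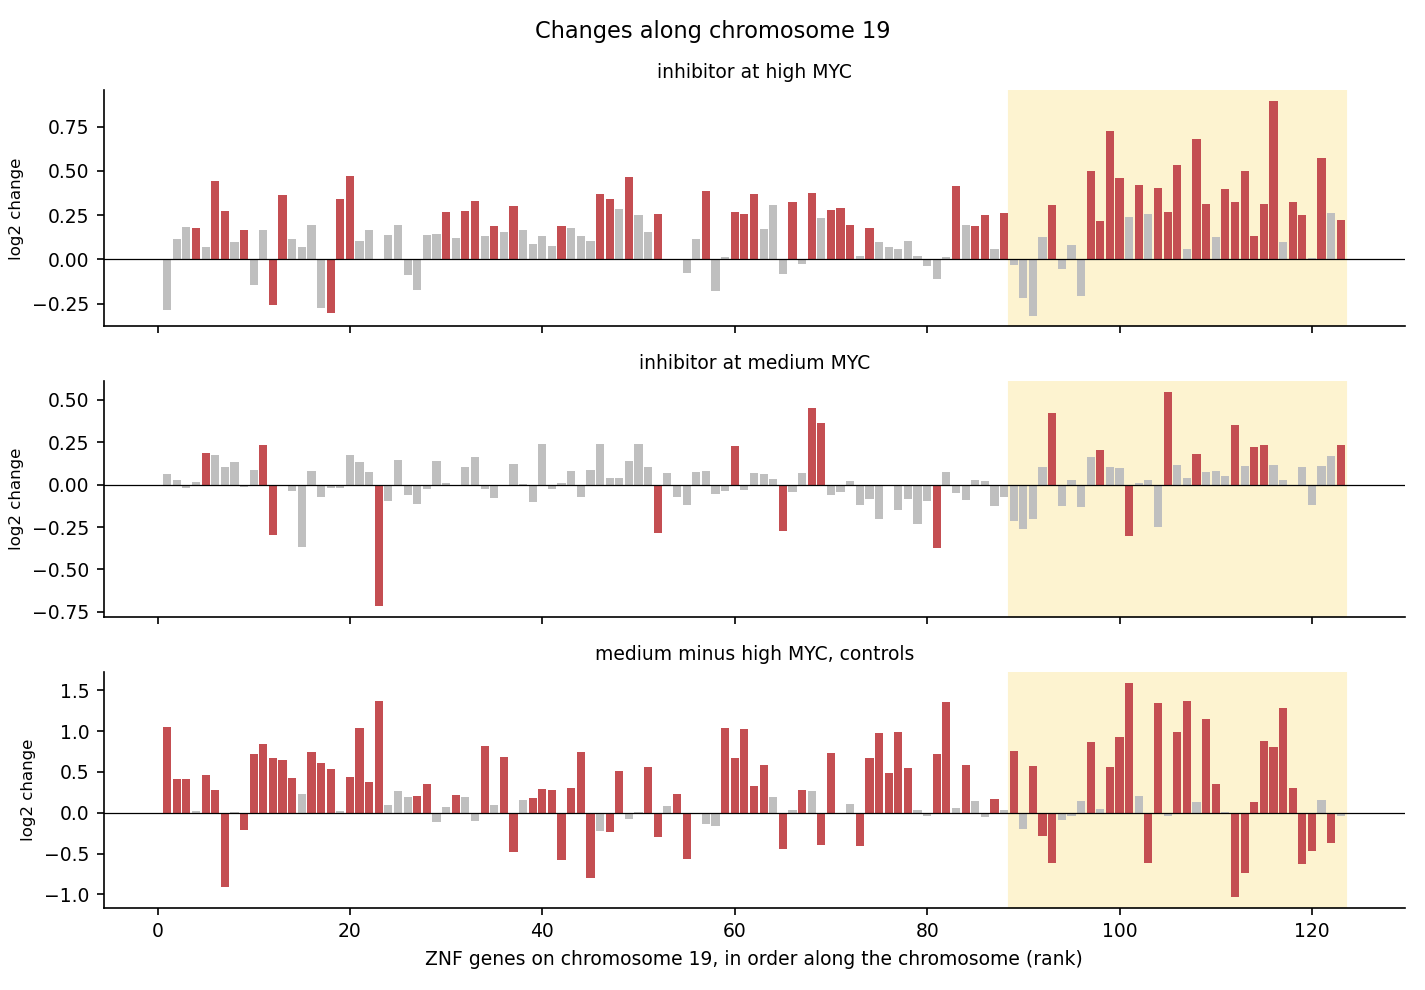
Bars give the log2 change of the 123 ZNF genes on chromosome 19 in their order along the chromosome, for the inhibitor at high MYC, the inhibitor at medium MYC and medium minus high MYC in controls, with genes at an adjusted p under 0.05 in red and the most distal run of 35 genes shaded. In the shaded run 21 bars of the top panel are red and positive and none is red and negative, and in the middle panel 8 are red and positive.

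Promoter sequence was looked up for these genes because neighbours in the distal run moved together. RefSeq (GRCh38.p14) start sites were matched for 254 of the 288 genes, and the 250 bases before each start were searched on both strands. The motif ACTTCCGG, an ETS-type site, was found in 14 of 32 genes of the distal run (43.8%), in 4 of 71 other KRAB genes on chromosome 19 (5.63%), in 14.6% of the 254 genes and in 7.82% of 9888 tested genes. This motif was chosen after the promoters had been read. In the distal run 10 of 14 with it and 9 of 18 without it were called higher at high MYC, with medians of 0.29 and 0.25. Outside the distal run 7 of 23 with it and 51 of 199 without it were called higher, with medians of 0.109 and 0.111. A link of the motif to the rise was not tested. Promoters of 4 genes of the run that rose and carry the motif, and of ZNF543, which rose and has no exact match, are shown as the 160 bases before the RefSeq start, 5′ to 3′ on the gene's strand. Capitals mark ACTTCCGG, and in ZNF814 also the E-box CACGTG that MYC and MAX bind. ZNF264 and ZNF814 were chosen for display after their values were seen.
ZNF256 (chr19:57947707-57947866, minus strand): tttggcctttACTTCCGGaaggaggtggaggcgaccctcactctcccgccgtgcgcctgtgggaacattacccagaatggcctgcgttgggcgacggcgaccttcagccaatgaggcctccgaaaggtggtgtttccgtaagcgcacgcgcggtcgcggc
ZNF134 (chr19:57614082-57614241, plus strand): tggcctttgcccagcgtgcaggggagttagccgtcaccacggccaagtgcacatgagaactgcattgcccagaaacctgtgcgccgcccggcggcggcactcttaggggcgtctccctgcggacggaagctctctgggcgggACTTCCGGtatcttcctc
ZNF264 (chr19:57191340-57191499, plus strand): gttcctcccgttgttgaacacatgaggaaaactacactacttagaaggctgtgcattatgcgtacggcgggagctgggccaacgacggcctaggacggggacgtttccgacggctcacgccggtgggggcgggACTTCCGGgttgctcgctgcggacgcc
ZNF814 (chr19:57889038-57889197, minus strand): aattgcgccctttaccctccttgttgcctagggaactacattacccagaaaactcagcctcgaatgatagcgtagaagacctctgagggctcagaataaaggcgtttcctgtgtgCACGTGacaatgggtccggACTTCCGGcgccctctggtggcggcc
ZNF543 (chr19:57320312-57320471, plus strand): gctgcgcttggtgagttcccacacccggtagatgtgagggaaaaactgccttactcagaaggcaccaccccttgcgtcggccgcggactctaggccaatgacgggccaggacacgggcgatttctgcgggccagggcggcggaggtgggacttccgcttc
In ZNF134, ZNF264 and ZNF814 the motif begins 18, 27 and 26 bases before the start, and in ZNF256 150 bases before it. ZNF264 rose at high MYC from 250, 225, 252 and 267 to 376, 348, 351 and 332 (log2 change 0.50 ± 0.061, adjusted p = 2.08e-06). ZNF814, of whose transcript windows 14.0% occur elsewhere, rose from 594, 586, 536 and 568 to 840, 817, 777 and 794 (0.50 ± 0.049, adjusted p = 1.03e-07). Both pairs of groups were without overlap.

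Other promoter elements were counted in the same 254 windows. The E-box CACGTG was in 5.51% of the 254 genes and 9.2% of tested genes, in 5 of 32 genes of the distal run (15.6%), and in 0 of 71 other KRAB genes on chromosome 19. In the distal run 5 of 5 with it and 14 of 27 without it were called higher at high MYC (medians 0.22 and 0.26). At medium MYC 4 of 5 and 3 of 27 were. Outside the distal run 3 of 9 with it and 55 of 213 without it were called higher at high MYC, and 0 of 9 and 28 of 213 at medium MYC. A link of the E-box to the rise was not tested. The CCAAT box was in 55.0% of KRAB genes with a promoter, 33.0% of those without KRAB and 36.1% of tested genes. The GC box GGGCGG was in 62.6% of the 254 genes and 66.9% of tested genes. A match is a run of letters and not a shown binding site.

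At medium MYC the inhibitor moved fewer of the genes one way. Of the 288, 39 were higher and 22 lower (13.5% and 7.64%), against 26.3% called among all tested genes, 11.7% higher and 14.6% lower. Among tested genes with a mean of at least 100, 14.2% were higher and 18.8% lower, so the share of higher ZNF genes was near that of genes at their level. The median was 0.012 against -0.0062 for all tested genes. The split depended on scaling: with equal library totals 48 were higher and 16 lower. KRAB genes had 24 of 181 higher and 8 lower (median 0.026), and those without KRAB 15 of 107 higher and 14 lower (median -0.0052). Libraries did not overlap in 56 of the 288 genes, against 27.9% of tested genes.

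The largest rise at medium MYC was in ZNF550, a KRAB gene of the distal run (57535257 to 57559863, minus strand). Its counts were 111, 146, 137 and 130 in controls and 189, 186, 177 and 213 with the inhibitor, without overlap (log2 change 0.55 ± 0.099, adjusted p = 0.000242). Its exons overlap those of ZNF549 on the opposite strand, so without strand the reads of the pair cannot be fully told apart. ZNF581 rose from 199, 174, 207 and 197 to 248, 255, 263 and 274 (0.42 ± 0.072, adjusted p = 0.000116), and ZNF587B, 31.4% of whose windows occur in other genes, from 365, 375, 360 and 346 to 490, 438, 486 and 437 (0.35 ± 0.050, adjusted p = 1.28e-05). Both groups of 4 were again apart. ZNF35, ZNF394 and ZNF33B rose by 0.32, 0.31 and 0.30. All 6 of these genes were also called higher at high MYC, with changes from 0.27 (ZNF550) to 0.38 (ZNF35).

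The largest falls at medium MYC were in ZNF93 and ZNF789. ZNF93, a KRAB protein known for silencing LINE-1 elements (chromosome 19, 19900913 to 19963464, plus strand), fell from 214, 211, 214 and 217 to 136, 120, 134 and 129, a log2 change of -0.72 ± 0.10 (adjusted p = 1.32e-05). At high MYC it stood at 73.1, 92.1, 89.4 and 77.1 in controls and 100, 72.1, 82 and 78 with the inhibitor, which overlap. ZNF789, a KRAB gene on chromosome 7 (99472841 to 99503650, plus strand), fell from 525, 562, 512 and 509 to 340, 314, 338 and 309, a log2 change of -0.69 ± 0.057 (adjusted p = 5.80e-09). At high MYC it gave 378, 403, 370 and 412 without and 351, 370, 363 and 404 with the inhibitor. ZNF394, which overlaps ZNF789 on the opposite strand (99486519 to 99500324), went the other way at medium MYC, from a mean of 349 ± 21.9 to 433 ± 24.6. ZNF395 fell by 0.57, ZNF160 by 0.37 and ZNF516 by 0.30. ZNF548 fell from 296, 307, 291 and 296 to 261, 240, 206 and 260 (-0.31 ± 0.090, adjusted p = 0.0147), and without replicate 3 of the treated libraries its adjusted p was 0.0701.

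Both inhibitor comparisons use separate libraries. Of the 100 genes called at high MYC and the 61 called at medium MYC, 31 were called at both, which is 31% of the former and 50.8% of the latter. Of these 31, 22 were higher at both, 8 lower at both, and ZNF607 was higher at high and lower at medium MYC. Shared calls were not counted over all tested genes, so these numbers describe the 288 genes only. Over the 288 genes the changes at the 2 levels had a Pearson r of 0.50, against 0.40 over all tested genes, as a description across genes.

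The difference in response was tested directly as the change at high MYC minus the change at medium MYC. It was called in 27 of the 288 genes, 24 above 0 and 3 below (8.33% and 1.04%), against 8.63% of all tested genes, 3.31% above and 5.33% below. All 19 KRAB genes called were above 0, 15 of them on chromosome 19 and 10 genes in all from the distal run. In 21 of the 27 the change was larger in size at high MYC, in 6 it was larger at medium MYC, and in 11 the signs were opposite. The median difference was 0.084 for the 288 genes, 0.16 for KRAB genes on chromosome 19, 0.021 for genes without KRAB and -0.016 for all tested genes.

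ZNF256 differed most (0.78 ± 0.14), again a description given how it passed the threshold. ZNF543 differed by 0.62 ± 0.12 (adjusted p = 0.00181). Both genes did so through the rise at high MYC. ZNF93 (0.72 ± 0.14) and ZNF789 (0.62 ± 0.080, adjusted p = 1.72e-05) differed through the fall at medium MYC. ZNF549 had counts of 67, 59.5, 56.3 and 77.1 in the high MYC controls and 90.3, 95.4, 76.8 and 81.1 with the inhibitor, then 150, 182, 162 and 169 and 135, 147, 128 and 146 at medium MYC. Its change was 0.40 at high MYC (adjusted p = 0.00734) and -0.25 at medium MYC (adjusted p = 0.0953), a difference of 0.65 ± 0.15. ZNF548, whose mean in the high MYC controls was under 100, differed by 0.55 ± 0.13. ZNF93 and ZNF549 passed the threshold only through the medium MYC groups, which favours a difference between groups. The differences of ZNF93, ZNF549 and ZNF548 are thus given as a description.

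Below 0 were ZNF318 (-0.37 ± 0.070, adjusted p = 0.00141), ZNF362 (-0.44 ± 0.12, adjusted p = 0.0270) and ZNF217 (-0.16 ± 0.044, adjusted p = 0.0227), all of them lower at high MYC. At medium MYC ZNF318 gave 713, 777, 874 and 797 in controls and 742, 748, 725 and 717 with the inhibitor, which overlap. The call on ZNF362 was lost on leaving out any 1 of 5 libraries: replicate 1 (adjusted p = 0.0545) or 2 (0.0605) of the high MYC inhibitor group, replicate 4 of the medium MYC controls (0.0651), or replicate 3 (0.0613) or 4 (0.060) of the medium MYC inhibitor group. That on ZNF217 was lost without replicate 4 of the high MYC inhibitor group (adjusted p = 0.0548), replicate 2 of the medium MYC controls (0.0603), or replicate 1 (0.0506) or 2 (0.0509) of the medium MYC inhibitor group. Without replicate 3 of the medium MYC controls, 5 genes were called below 0.

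**Figure D5:**
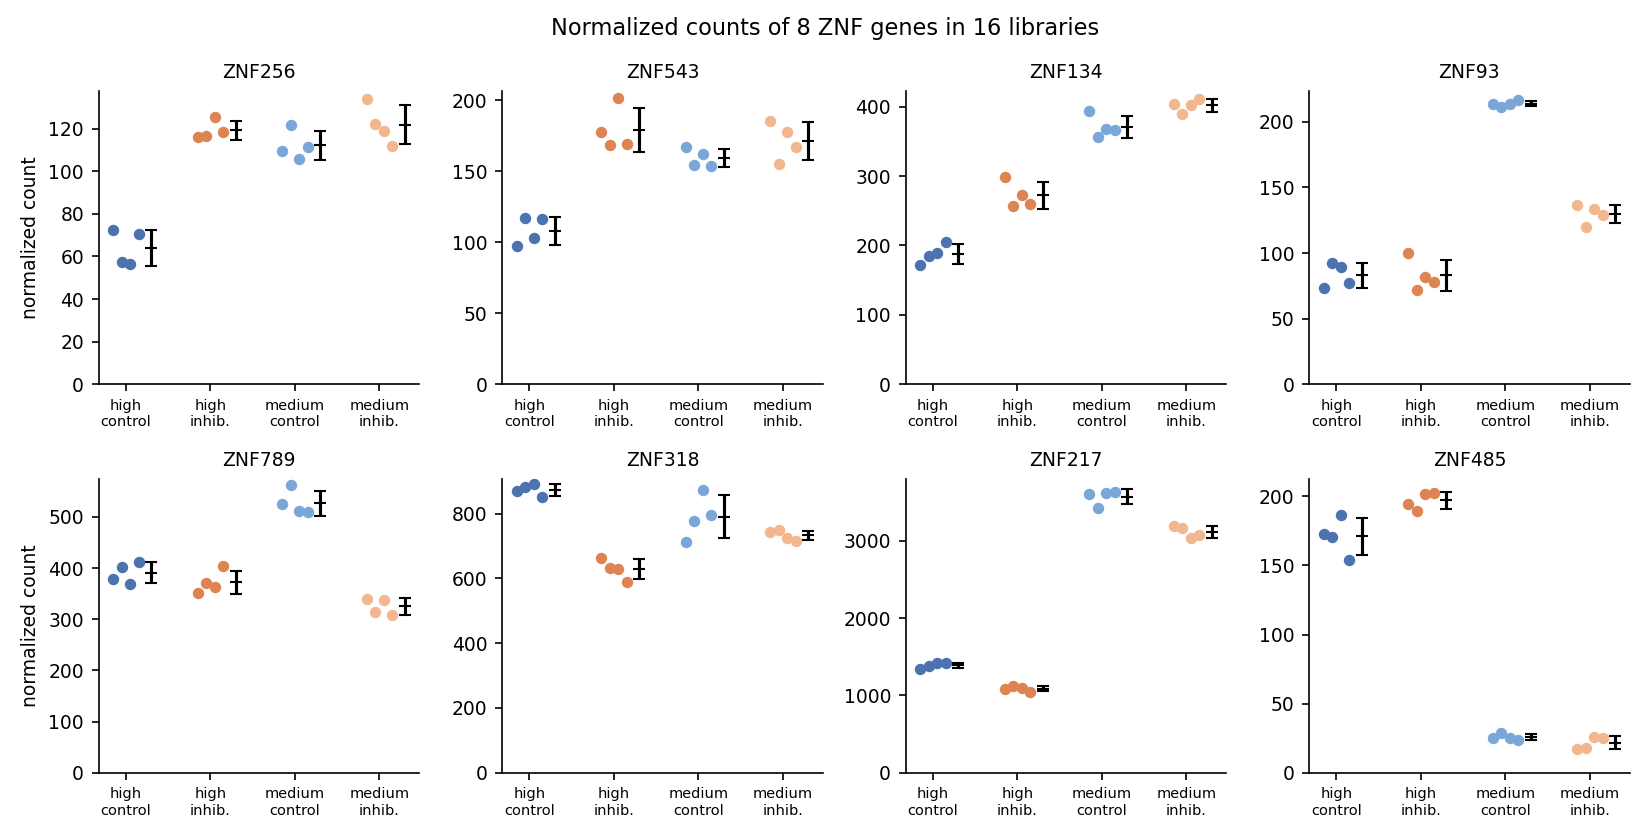
Normalized counts of 8 ZNF genes in the 16 libraries, 1 panel a gene and 1 point a library, with the mean and SD of each group of 4 as a bar; the axes start at 0. ZNF256 and ZNF543 are lowest in the high MYC controls, ZNF93 and ZNF789 are highest in the medium MYC controls and lower with the inhibitor there, and ZNF485 is at 29.1 or below in all 8 medium MYC libraries.

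Differences between the medium and high MYC groups, which also differ in doxycycline and estradiol, were larger than those with the inhibitor. In controls 119 of the 288 genes were higher and 85 lower at medium than at high MYC (41.3% and 29.5%), against 76.2% of all tested genes called, 38.9% higher and 37.3% lower. The median was 0.087 against 0.017 for all tested genes. Of the 288, 11 genes had means under 100 in both high MYC groups and 3 in both medium MYC groups. The rule thus favoured genes higher at medium MYC, and no count without these genes was made. Of the 204 called genes 29 differed at least 2-fold, 18 of them higher at medium MYC. These 29 are 10.1% of the 288 genes, against 24.0% of all tested genes and 18.9% of those with a mean of at least 100. Libraries were without overlap in 176 of the 288 genes, against 69.2% of tested genes.

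Among KRAB genes, chromosome 19 and the other chromosomes had opposite balances, a contrast that was not tested. On chromosome 19, 59 of 104 KRAB genes were higher at medium MYC and 12 lower (median 0.28), whereas elsewhere 20 of 77 were higher and 36 lower (median -0.13). Genes without KRAB had 40 of 107 higher and 37 lower (median -0.044). Among the runs on chromosome 19, that at 11559374 to 12640098 had 8 of 9 higher and none lower, with a median of 0.64, and that at 19668796 to 24129961 had 12 of 23 higher and 1 lower. The distal run was mixed, with 16 of 35 higher and 8 lower. The ZNF genes under the threshold, with means from 10 to 100, had 70 of 122 higher and 15 lower, with a median of 0.56.

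ZNF608, which has 1 finger by the pattern (chromosome 5, 124636913 to 124748807, minus strand), was the gene most higher at medium MYC. It had 166, 146, 147 and 167 counts at high and 702, 667, 683 and 676 at medium MYC, a log2 change of 2.12 ± 0.058 (adjusted p = 1.36e-18), or 4.35-fold. ZNF548 of the distal run rose from 87.4, 95.5, 106 and 105 to 296, 307, 291 and 296 (1.59 ± 0.090), though 19.4% of its windows occur in other genes. Its mean in the high MYC controls was under 100, so the rule favoured this change, which is given as a description. ZNF641 went from a mean of 175 ± 13.8 to 507 ± 31.4 (1.54), ZNF117 from 219 ± 17.0 to 576 ± 35.1 (1.39), ZNF211 from 55.4 ± 5.23 to 145 ± 13.5 (1.37) and ZNF93 from 82.9 ± 9.26 to 214 ± 2.13 (1.36). In all 6 genes every medium MYC library was above every high MYC library. ZNF211 and ZNF93 passed the threshold only through the medium MYC groups, so the rule itself required a difference between the MYC levels. Their changes are given as a description.

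In the other direction, ZNF485, a KRAB gene on chromosome 10 (43606407 to 43617903, plus strand), had the most negative change. With a mean of 104 over all libraries it passed the threshold only through the high MYC groups, so the rule itself required a difference between the MYC levels, and its change is given as a description. It had 172, 171, 187 and 154 counts at high and 25, 29.1, 25.4 and 23.8 at medium MYC, a log2 difference of -2.68 ± 0.13, or 6.41-fold lower. ZNF692, without KRAB, lies within 1 kb of ZNF672 at the end of chromosome 1 on the opposite strand (248850006 to 248859144). It fell from 494, 437, 445 and 469 to 111, 135, 115 and 117 (-1.94 ± 0.083, adjusted p = 3.58e-15), whereas ZNF672 (248838210 to 248849517) went up from 241, 238, 246 and 212 to 415, 376, 459 and 410 (0.82 ± 0.070, adjusted p = 5.74e-10). Neither gene's groups overlapped. ZNF860 (-1.55), ZNF783 (-1.42), ZNF74 (-1.34) and ZNF395 (-1.33) were the next lower, each without overlap. Of the genes with a promoter, CACGTG was in 7 of 75 called lower at medium MYC (9.33%) and in 3 of 104 called higher (2.88%), so the former share is near the 9.2% of tested genes. ZNF783 is one of the former, with the E-box 10 bases before its RefSeq start, in capitals in the 160 bases shown here.
ZNF783 (chr7:149262036-149262195, plus strand): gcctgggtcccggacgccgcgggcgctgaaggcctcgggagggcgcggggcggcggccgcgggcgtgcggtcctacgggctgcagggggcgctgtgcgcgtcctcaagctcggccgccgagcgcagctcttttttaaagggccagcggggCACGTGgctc

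With the inhibitor present, medium against high MYC gave 94 of the 288 genes higher and 104 lower (32.6% and 36.1%), against 77.5% of all tested genes called, 39.7% higher and 37.8% lower. Libraries were without overlap in 178 of the 288 genes, against 72.6% of tested genes. KRAB genes had 63 of 181 higher and 64 lower. Those on chromosome 19 had 51 of 104 higher and 25 lower (median 0.20), and those elsewhere 12 of 77 higher and 39 lower (median -0.18). ZNF608 (2.21), ZNF217 (1.52) and ZNF641 (1.45) were most higher, followed by ZNF347 (1.41), ZNF555 (1.40) and ZNF211 (1.35, given as a description). ZNF485 was again lowest, with 195, 190, 202 and 203 counts at high and 17.5, 17.9, 26.1 and 25.2 at medium MYC (-3.15 ± 0.13, again a description). ZNF217 stood at 1079, 1122, 1093 and 1043 counts at high and 3197, 3162, 3036 and 3069 at medium MYC (1.52 ± 0.031, adjusted p = 1.11e-20). ZNF692, ZNF783, ZNF395, ZNF74 and ZNF593 were next lower, by changes from -1.92 to -1.48. Of the genes called in both MYC comparisons, 89 were higher in both and 76 lower in both, and ZNF26, ZNF318 and ZNF789 changed sign. Shared calls over all tested genes were not counted here either. Across genes the changes in both MYC comparisons had a Pearson r of 0.950 over the 288 and 0.957 over all tested genes.

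Set out by group mean, 118 of the 288 genes (41.0%) were lowest in the high MYC controls, against 19.3% of tested genes. Of the KRAB genes 93 of 181 (51.4%) were lowest there, of those on chromosome 19 70 of 104 (67.3%), and of the genes without KRAB 25 of 107 (23.4%). Only 1 of the 104 KRAB genes on chromosome 19 was highest in the high MYC controls, whereas 34 were highest in the high MYC inhibitor group, 33 in the medium MYC controls and 36 in the medium MYC inhibitor group. Adjacent group means often differ by less than the spread between replicates, so the order is a description.

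By role, genes with a described function were followed whatever they did, from a list of which 33 were among the 288. Of these 33, 9 were higher and 4 lower with the inhibitor at high MYC, 7 and 3 at medium MYC, and 14 higher and 9 lower at medium against high MYC in controls. As shares these are 27.3% and 12.1% at high MYC (all tested genes 10.5% and 16.3%), 21.2% and 9.09% at medium MYC (11.7% and 14.6%), and 42.4% and 27.3% for MYC level (38.9% and 37.3%). In silencing of repeats, ZNF91, which represses SVA elements, stood at 543, 538, 557 and 505 counts in the high MYC controls and 582, 600, 562 and 661 with the inhibitor, and was called in none of the 5 comparisons. ZNF274, which binds the 3′ ends of ZNF genes and recruits SETDB1, went from a mean of 178 ± 12.5 at high to 437 ± 17.2 at medium MYC (log2 change 1.29), with 191 ± 6.00 and 444 ± 14.5 under the inhibitor. ZNF638, a factor that silences unintegrated retroviral DNA with the HUSH complex, was called in none of the 5, with group means between 1843 and 1890. ZNF445, a KRAB protein that protects genomic imprints, was lower at medium MYC in controls by 0.16 and was not called for the inhibitor.

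Among genes of ribosomes and translation, ZNF593, a pre-ribosome export factor, had 241 ± 30.7 counts in the high and 101 ± 14.2 in the medium MYC controls (-1.24). ZNF598, the ubiquitin ligase that senses collided ribosomes, had 907 ± 79.9 and 631 ± 40.1 (-0.52), and neither was called for the inhibitor. ZNF622, a ribosome assembly factor, differed little between MYC levels (-0.03) and rose with the inhibitor from 250 ± 9.56 to 289 ± 21.4 at high and from 245 ± 17.0 to 286 ± 15.7 at medium MYC (0.21 and 0.22). In RNA processing and mitosis, ZNF326, a subunit of the DBIRD complex, was lower at medium MYC by 0.53, ZNF830 rose with the inhibitor at high MYC by 0.38, and ZNF207, a spindle and kinetochore protein, rose by 0.11 at high and 0.09 at medium MYC.

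Among transcription factors without KRAB, ZNF281 had 512 ± 26.7 counts in the high MYC controls, 658 ± 19.8 with the inhibitor, 543 ± 14.7 in the medium MYC controls and 558 ± 6.00 with the inhibitor. It rose at high MYC (0.36) and its response differed between MYC levels (0.32). ZNF143, which binds many promoters, was higher at medium MYC by 0.24 both without and with the inhibitor. ZNF410, which activates CHD4, was higher at medium MYC by 0.36 in controls and rose with the inhibitor at medium MYC by 0.18. ZNF687 and ZNF592, partners in a complex with ZMYND8, went opposite ways with MYC level (0.66 and -0.32), and both fell with the inhibitor at high MYC, by 0.21 and 0.16. The KRAB gene ZNF263 rose with the inhibitor at both levels (0.39 and 0.22).

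The machinery that KRAB proteins call on was followed beside them. Of 36 genes of the TRIM28 co-repressor and H3K9 methylation machinery, 2 were higher and 12 lower with the inhibitor at high MYC, and 1 higher and 10 lower at medium MYC. The lower genes are 33.3% and 27.8% of the list, against 16.3% and 14.6% of all tested genes, and 20.5% and 18.8% of those with a mean of at least 100. TRIM28 stood at 4065, 4054, 3801 and 3888 counts in the high MYC controls and 3737, 3820, 3923 and 3825 with the inhibitor, which overlap (-0.046 ± 0.038, adjusted p = 0.409), and it was lower at medium MYC, at 2609, 2621, 2964 and 2549 (-0.56 ± 0.038, adjusted p = 1.15e-11). SETDB1 was not called for the inhibitor either (-0.058 at high MYC, adjusted p = 0.360) and was lower at medium MYC in controls by 0.11. CBX5, the HP1-alpha chromatin protein, fell with the inhibitor by 0.21 at high and 0.18 at medium MYC, DNMT3A, a DNA methyltransferase, by 0.32 and 0.28, and ATF7IP, the partner of SETDB1, rose by 0.17 at high MYC. Other zinc finger name classes at the same level cut were small: with the inhibitor at high MYC 14 of 28 ZBTB genes were higher and 4 lower, 5 of 13 ZSCAN and ZKSCAN genes were higher and 1 lower, 3 of 9 KLF genes were higher and none lower, and 1 of 10 ZFP genes was higher and 2 lower. Among all tested genes at that cut 10.9% were higher and 20.5% lower.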

How the data were processed

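RNA sequencing of 16 P493-6 libraries, 4 in each of 4 groups taken from the labels, was analysed from 1 deposited table. Its values are a signal made by the authors, gene counts divided by 1 size factor per library. The submitters' processing notes list STAR 2.5.2a, RSEM 1.2.31, DESeq2 1.16.1 and GRCh38 with no role or order, and the annotation and strand are not given in the sources used here. In every library 100% of the deposited values were whole multiples of 1 step within 0.01, so whole counts were recovered, from 8755296 to 13858534 a library. They are called reads here, and whether they were counted or are rounded estimates is not given. Replicates correlated at 0.985 to 0.991 on the log2 scale.

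Values were tested as log2(value + 1) with limma 3.58.1 (R 4.3.3, trend on), in 1 fit of 4 group means over 13765 genes whose mean reached 10, with Benjamini-Hochberg adjustment over all of them and a threshold of 0.05. A fold change is on this scale and understates that of low genes. All adjusted p-values come from this fit unless another setting is named. Comparisons that share a group share its libraries. Alternatives were count tests on the recovered reads (edgeR 4.0.16, DESeq2 1.42.0), other scalings, filters and pseudocounts, GC correction, a replicate block, only the groups compared, and each library left out. The edgeR quasi-likelihood test called 87 of the 288 genes higher and 15 lower with the inhibitor at high MYC. The fitting steps were tested on simulated data.

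Positions, exons and coding sequences came from GENCODE 29 (GRCh38), matched for 57447 identifiers. KRAB and SCAN domains were found with profiles built in pyhmmer 0.12.3 at an E-value of at most 1e-05, and fingers by the pattern C-x(2,4)-C-x(12)-H-x(3,5)-H. Promoters came from RefSeq (GRCh38.p14).

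The genes and lists were chosen with earlier results of these data known. Genes were named by rule: per comparison up to 6 called genes a direction with the largest change, without overlap of libraries in the 2-group comparisons, plus TRIM28, SETDB1, MYC, listed genes with a described role and up to 3 genes of each other list. ZNF41, ZNF106, ZNF142, ZNF264, ZNF607, ZNF700, ZNF791, ZNF814 and ATF7IP at high MYC were named after their values were seen, as were repeat mentions of named genes in further comparisons.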

Additional observations from a re-analysis of the deposited data

Results flagged for a closer look

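Chance alone sets 1 library apart in about 1 in 20 groups of 4, and 6 of 144 groups examined had such a library. The medium MYC inhibitor group had replicate 2 apart from the others as the highest for ZNF132 (136.1 normalized counts) and replicate 3 apart as the lowest for ZNF551 (258.0). In the medium MYC controls replicate 2 was apart as the lowest for ZNF217 (3422) and replicate 3 as the highest for ZNF516 (757.9). In the high MYC inhibitor group replicate 1 was apart as the lowest for ZNF341 (195.7) and replicate 4 as the lowest for ZNF550 (132.0).

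The response to the inhibitor differed between the MYC levels, by limma's test of the difference itself (log2 change at high minus that at medium MYC), for ZNF256 (0.78), ZNF93 (0.72), ZNF549 (0.65), ZNF789 (0.62), ZNF543 (0.62), ZNF548 (0.55), ZNF362 (-0.44), ZNF318 (-0.37) and ZNF217 (-0.16). For ZNF256, ZNF93, ZNF549 and ZNF548 this is a description, as each passed the threshold only through the groups where it was high.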

How the results depend on the processing

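Of 384 values of the counts under alternative settings, 380 stayed within 1.5 times the reported count. The other 4 were the genes lower with the inhibitor at high MYC under GC correction (23 against 15), the genes with a difference in response below 0 with the replicate block (1 against 3) and without replicate 3 of the medium MYC controls (5), and the number of ZNF genes at a mean of at least 200 (186 against 288). Leaving out 1 library at a time gave 65 to 88 higher and 14 to 16 lower at high MYC (KRAB higher 47 to 66), 27 to 42 and 18 to 22 at medium MYC (KRAB higher 16 to 25), 19 to 28 above and 2 to 5 below 0 for the difference (KRAB above 14 to 21), 112 to 123 and 80 to 86 for MYC level in controls, and 86 to 100 and 101 to 106 with the inhibitor. Same-numbered libraries did not deviate together on average (mean residual correlations from -0.072 to 0.024). Single same-numbered pairs ran from -0.15 to 0.24, the highest being replicate 4 of the high and medium MYC controls. With 4 pairs per comparison, these values cannot show whether a shared number marks a shared culture or day. With the replicate block the inhibitor comparison had 77 genes higher and 15 lower at high MYC, the one at medium MYC 36 and 20, and there were 21 above and 1 below 0 for the difference. Of 57 single-gene results 4 lost their call in 15 of 1644 settings: ZNF341 at high MYC (also with GC correction and the block together, adjusted p = 0.0590), ZNF548 at medium MYC, and the differences of ZNF362 (block, adjusted p = 0.0621) and ZNF217 (block, adjusted p = 0.0556, and no filter, 0.0523). No value changed direction. The lowest value of any of these genes in a library was 15 reads, which limits small changes in low genes.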
